A study of Homo sapiens with 16 samples.

Results

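The genes described here are 10 transcripts of ferroptosis defence, iron handling and the NRF2 response, GPX4, SLC7A11, GCLM, AIFM2, ACSL4, TFRC, FTH1, FTL, HMOX1 and NQO1, chosen by name from the 57773 genes of a raw count table. All 10 of them were among the 20175 genes that had at least 60 counts over the series and entered the tests. The series holds 16 RNA-seq libraries from 4 lines grown from human clear cell renal cell carcinoma (ccRCC), A498, 769-P, 786-O and CAKI-2, all long established, each transduced with lentiviruses carrying Cas9 and a guide RNA. Each line gave 1 library with the non-targeting guide sgCtrl and 2 with guides against exon 8 of KDM5C, numbered 4 and 5, and 786-O and CAKI-2 each gave 2 more with guides 2 and 4 against KDM5D. KDM5C and KDM5D are histone H3 lysine 4 demethylases encoded on the X and the Y chromosome. The cultures were edited populations, not single-cell clones, and all groups including sgCtrl carried Cas9 and a lentiviral vector. The paper describes puromycin selection for the sgCtrl and sgKDM5C populations. Its vectors carried resistance to puromycin or neomycin, and the drug used for the sgKDM5D populations is not stated. Each guide gave 1 library per line, so no guide and no control was repeated within a line. The p-values therefore measure the spread between separately transduced populations with 2 guides against the same target. In that spread, differences between guides, between cultures and of technical origin cannot be told apart.

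Ferroptosis is a form of cell death in which iron-catalysed peroxidation of polyunsaturated membrane lipids runs out of control. Cells hold it back with glutathione and the glutathione peroxidase GPX4, with quinone-based radical trapping, and by storing iron in ferritin. NRF2, encoded by NFE2L2, is a transcription factor held at low levels by KEAP1, and when released it raises genes of glutathione synthesis, quinone reduction, ferritin and NADPH supply. Clear cell renal carcinoma cells are known to be sensitive to loss of GPX4.

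The libraries held 23398449 to 41617439 counts, each of the 10 genes rested on 659 counts or more in every library, and the 16 libraries differed from each other within a line by more than counting noise. KDM5C stood at 26.2% to 57.3% of the control of its line in the 8 sgKDM5C libraries and at 91.5% to 105.6% in the 4 sgKDM5D libraries, and over the 4 lines it fell by 1.12 on the log2 scale (adjusted p = 0.0154, edgeR). KDM5D stood at 76.2% to 102.8% of control in the 4 sgKDM5D libraries, and since a transcript that carries a small insertion or deletion can still be counted, this level does not check those labels. The renal marker PAX8 was at 145 to 968 CPM (counts scaled to a common library size) in every library. Other renal markers were lower, PAX2 at 5.34 to 60.3 CPM, CDH16 at 2.44 to 208.0 CPM, CUBN at 0.978 to 41.5 CPM and LRP2 at 0 to 16.9 CPM. Of the markers of clear cell tumours, CA9 did not exceed 9.53 CPM and was at 0 in some libraries. NDUFA4L2 ranged from 0 to 50.1 CPM and VIM from 586 to 2604 CPM. The summed level of 5 leukocyte and endothelial markers, PTPRC, CD68, CD3E, CDH5 and VWF, was 0.0342 to 3.43 CPM. Of the fibroblast markers, COL1A1 was at 1.07 to 41.8 CPM and PDGFRB at 0.287 to 9.87 CPM, while DCN and LUM did not exceed 0.284 and 0.883 CPM.

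**Figure D1:**
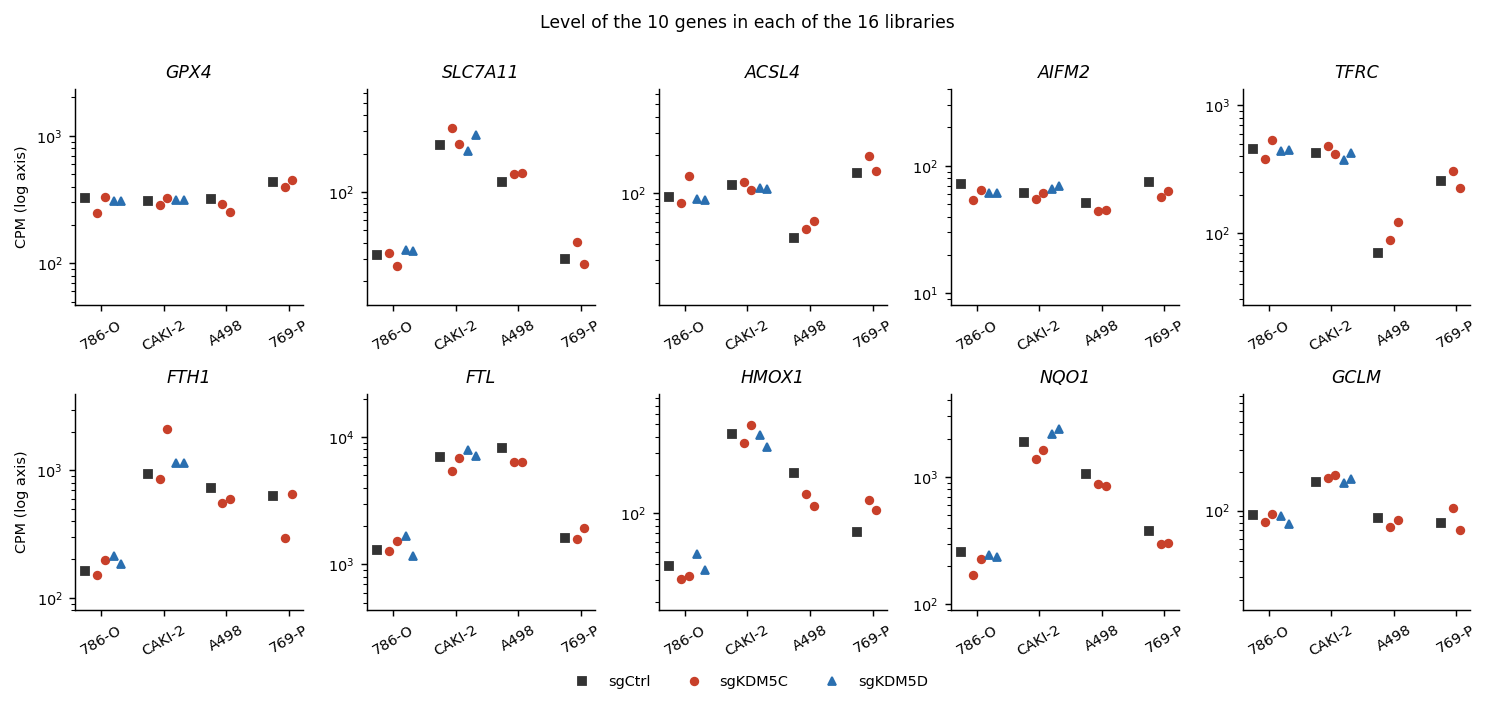
CPM of each of the 10 genes (log axis) in the 16 libraries, by line. Black squares are sgCtrl, red circles sgKDM5C and blue triangles sgKDM5D, 1 point per library. HMOX1, NQO1 and SLC7A11 differed far more between 786-O and CAKI-2 than between the guides within either line. NQO1, for example, was at 170 to 258 CPM in 786-O and 1380 to 2367 CPM in CAKI-2. SLC7A11 overlapped between 786-O and 769-P, and HMOX1 between A498 and 769-P.

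Differences between the lines were large for most of these genes. The question was how far the ferroptosis and NRF2 programmes differ among ccRCC lines before any effect of a guide is read. In edgeR's quasi-likelihood test across the 4 lines, in which the level of a line was the mean of its sgCtrl and sgKDM5C groups, all 10 genes were called at an adjusted p under 0.05. This has to be read against the 90.5% of all tested genes that were called, so the call itself is not particular to these genes, and the sizes and the order of the lines carry the description. Pair by pair, the 10 genes gave 6 calls from 786-O to CAKI-2 (63.3% of all genes called), 8 from 786-O to A498 (68.7%), 6 from 786-O to 769-P (50.0%), 8 from CAKI-2 to A498 (65.8%), 9 from CAKI-2 to 769-P (63.8%) and 8 from A498 to 769-P (69.9%). From 786-O to CAKI-2 all 6 were higher, and from CAKI-2 to A498 all 8 were lower. The median gene also shifted slightly between lines, by 0.11 from 786-O to CAKI-2, by 0.17 from 786-O to A498 and by -0.17 from A498 to 769-P on the log2 scale. The trend with GC content differed too. Log2 levels at 60% GC minus those at 40% GC were 0.354 to 0.743 in A498 and -0.866 to -0.276 in 769-P. They were -0.234 to 0.02 in 786-O and -0.058 to 0.251 in CAKI-2. The line differences of single genes below are not adjusted for this trend.

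SLC7A11 encodes the cystine importer that feeds glutathione synthesis (chromosome 4, 139085251 to 139163503, minus strand, GRCh37). It was at 32.2 CPM in the control, 33.4 and 26.4 CPM with sgKDM5C guides 4 and 5 and 35 and 34.8 CPM with sgKDM5D guides 2 and 4 in 786-O, and in the same order at 234.7, 319.4, 239.8, 211.2 and 279.3 CPM in CAKI-2. In A498 the control and the sgKDM5C guides 4 and 5 gave 120.3, 139.8 and 140.4 CPM, and in 769-P they gave 30, 40.5 and 27.1 CPM. CAKI-2 was highest, A498 second, and 786-O and 769-P overlapped at the bottom. Relative to 786-O the log2 difference of the line means was 3.05 for CAKI-2 (SE 0.195, adjusted p = 9.77e-09), 2.07 for A498 (SE 0.185, adjusted p = 2.13e-07) and 0.04 for 769-P (SE 0.179, adjusted p = 0.915). SLC3A2, its heavy chain partner in the transporter, followed another order, with 1036.7 CPM ± 76.9 (SD, n = 3) in A498 and 419.6 CPM ± 20.8 (SD, n = 5) in CAKI-2.

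GCLM is the modifier subunit of glutamate-cysteine ligase, the rate-limiting enzyme of glutathione synthesis (chromosome 1, 94350755 to 94375012, minus strand, GRCh37). Its level was 176.5 CPM ± 11.4 (SD, n = 5) in CAKI-2 and lay between 82.4 and 87.1 CPM on average in the other 3 lines. The 5 CAKI-2 libraries, at 163.9 to 191.8 CPM, lay above all 11 others, which did not exceed 104.7 CPM. The log2 difference of CAKI-2 from 786-O was 0.97 (SE 0.151, adjusted p = 6.01e-05), and the pairs among 786-O, A498 and 769-P did not pass the test (adjusted p from 0.561 to 1).

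GPX4, the peroxidase that reduces phospholipid hydroperoxides (chromosome 19, 1103981 to 1106790, plus strand, GRCh37), varied least together with AIFM2. It averaged 288.2 CPM ± 32.7 (SD, n = 3) in A498, 302.9 CPM ± 33.1 (SD, n = 5) in 786-O and 308.6 CPM ± 14.6 (SD, n = 5) in CAKI-2. The 3 libraries of 769-P, at 435.0, 395.3 and 446.0 CPM, lay above the 13 others, which ranged from 246.9 to 330.6 CPM. The log2 difference of 769-P was 0.48 from 786-O (SE 0.132, adjusted p = 0.0071), 0.48 from CAKI-2 (adjusted p = 0.00545) and 0.54 from A498 (adjusted p = 0.00231).

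AIFM2, also called FSP1, reduces ubiquinone at the membrane and acts beside GPX4 (chromosome 10, 71857979 to 71892690, minus strand, GRCh37). Its range over the lines was 46.8 CPM in A498 to 64.7 CPM in 769-P, a ratio of 1.38 that was the smallest of the 10 genes. The 3 A498 libraries held 51.5, 44 and 44.7 CPM, below all libraries of the other lines, of which the lowest held 54.1 CPM. The log2 difference of A498 from 786-O was -0.45 (SE 0.119, adjusted p = 0.00369), and 786-O, CAKI-2 and 769-P did not differ beyond their spread (adjusted p 0.257 to 0.904). When only the control libraries were compared across lines within the same edgeR fit, AIFM2 (adjusted p = 0.0813) and GPX4 (adjusted p = 0.135) were no longer called. With 1 control per line, the spread in that test came from the guide libraries. MACROH2A2 lies on the other strand at the same place, and whether the counting used strand is not given in the sources used here.

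ACSL4 attaches polyunsaturated fatty acids to coenzyme A and so supplies the lipids that are peroxidised (chromosome X, 108867473 to 108976632, minus strand, GRCh37). It averaged 164.2 CPM ± 29.0 (SD, n = 3) in 769-P, 113.4 CPM ± 6.51 (SD, n = 5) in CAKI-2, 98.4 CPM ± 21.5 (SD, n = 5) in 786-O and 52.8 CPM ± 8.16 (SD, n = 3) in A498. CAKI-2 and 786-O did not differ beyond their spread (log2 difference 0.19, SE 0.173, adjusted p = 0.346). The log2 difference of A498 from 786-O was -1.0 (SE 0.177, adjusted p = 0.000155), and the highest A498 library, at 61.1 CPM, did not reach the lowest of any other line, at 83.5 CPM.

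TFRC, the transferrin receptor that brings iron into the cell (chromosome 3, 195739382 to 195809024, minus strand, GRCh37), had the lowest log2 difference of A498 from 786-O of the 10 genes. The A498 control and sgKDM5C guides 4 and 5 held 69.0, 87.9 and 122.5 CPM, and the 769-P libraries in the same order held 256.7, 307.1 and 224.3 CPM. In 786-O it ranged from 377.6 to 532.8 CPM with a median of 446.8 CPM, and in CAKI-2 from 369.9 to 476.6 CPM with a median of 422.0 CPM. That difference was -2.42 (SE 0.187, adjusted p = 4.6e-08), whereas CAKI-2 differed from 786-O by -0.07 (SE 0.173, adjusted p = 0.757).

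FTH1 and FTL, the heavy and light chains of ferritin, store iron in the cytosol. FTL (chromosome 19, 49468566 to 49470136, plus strand, GRCh37) was at 1302, 1285, 1533, 1677 and 1164 CPM in 786-O in the order control, sgKDM5C 4 and 5, sgKDM5D 2 and 4, and at 7001, 5375, 6844, 7940.2 and 7053 CPM in CAKI-2. In A498 the control and sgKDM5C guides 4 and 5 held 8190.1, 6345 and 6411 CPM, and in 769-P they held 1614, 1573 and 1924 CPM. The libraries of CAKI-2 and A498 overlapped and all lay above those of 786-O and 769-P. The log2 difference of A498 was 2.42 from 786-O (SE 0.173, adjusted p = 2.2e-08) and 0.14 from CAKI-2 (SE 0.161, adjusted p = 0.448). FTH1 (chromosome 11, 61727190 to 61735106, minus strand, GRCh37) had the same low line, 786-O, at 163.3, 151.5, 198.3, 211.0 and 184.1 CPM, and CAKI-2 at 938, 859.8, 2097, 1136.5 and 1144.9 CPM. A498 held 724.2, 551.5 and 599.1 CPM and 769-P held 629.3, 296.4 and 653.9 CPM, and these lines did not differ beyond their spread (log2 difference -0.24, SE 0.305, adjusted p = 0.502). FTH1 was the most uneven of the 10 genes within a line, since CAKI-2 with sgKDM5C guide 5 stood at 2097 CPM, more than any other library, and 769-P with sgKDM5C guide 4 at 296.4 CPM, below its 2 partners. Processed pseudogenes of FTH1 held 1.72% to 3.82% of the reads of gene and pseudogenes together, and those of FTL at most 0.148%. Per kb of annotated exon FTL was the most abundant of the 10 genes in every line, at 1598.4 CPM per kb in 786-O and 8015.9 CPM per kb in A498, and SLC7A11 was at 3.35 CPM per kb in 786-O and 26.6 CPM per kb in CAKI-2.

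HMOX1, haem oxygenase 1, opens the haem ring and frees its iron (chromosome 22, 35776354 to 35790207, plus strand, GRCh37). In 786-O it was at 38.6, 30.7, 32.4, 48.0 and 35.9 CPM and in CAKI-2 at 423.4, 358.3, 491.2, 409.9 and 330.2 CPM, in the order control, sgKDM5C 4 and 5, sgKDM5D 2 and 4. A498 held 206.3, 142.4 and 114.6 CPM and 769-P held 70.9, 127.9 and 105.8 CPM in the control and sgKDM5C guides 4 and 5. HMOX1 had the widest range of the 10 genes, 10.9-fold between the mean CPM of all CAKI-2 and of all 786-O libraries. The edgeR log2 difference, from the sgCtrl and sgKDM5C groups only, was 3.60 (SE 0.191, adjusted p = 1.58e-09). The 4 lines fell in the order CAKI-2, A498, 769-P and 786-O, every neighbouring pair passed the test, and only A498 and 769-P overlapped between libraries.

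NQO1 reduces quinones with 2 electrons and is the standard readout of NRF2 activity (chromosome 16, 69740899 to 69760571, minus strand, GRCh37). In 786-O it stood at 258, 170.4, 229, 244 and 236 CPM and in CAKI-2 at 1866, 1379.9, 1639, 2193 and 2367 CPM, in the order control, sgKDM5C 4 and 5, sgKDM5D 2 and 4. In A498 it stood at 1053, 882 and 845 CPM and in 769-P at 375, 297 and 305 CPM. The 4 lines did not overlap with each other. From 786-O the log2 difference was 2.89 to CAKI-2 (SE 0.144, adjusted p = 8.73e-10), 2.07 to A498 (SE 0.138, adjusted p = 1.03e-08) and 0.57 to 769-P (SE 0.131, adjusted p = 0.00237).

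**Figure D2:**
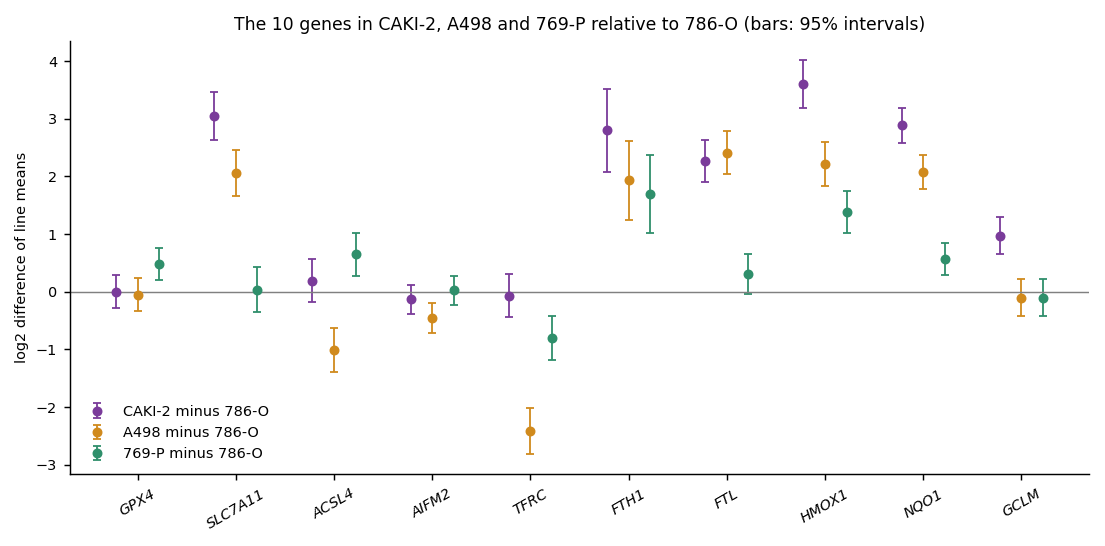
Log2 difference of the line mean of CAKI-2, A498 and 769-P from that of 786-O for the 10 genes, from the edgeR fit, with 95% intervals as bars. HMOX1, SLC7A11, NQO1 and FTH1 were highest in CAKI-2 relative to 786-O (3.60, 3.05, 2.89 and 2.80), FTL was high in both CAKI-2 and A498 (2.27 and 2.42), and TFRC and ACSL4 were low in A498.

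NRF2 binds DNA with a small Maf protein at the antioxidant response element, whose core is TGACNNNGC on either strand. The promoters of 4 of the 10 genes are shown with matches to that core in capitals, because GCLM and AIFM2 held 1 in the 250 bases before the start and NQO1 and FTL, the most different between lines of those with a sequence, held none. Each is given 5′ to 3′ on the strand of the gene, from RefSeq in build GRCh38.p14, at chr1:93909431-93909680 (minus strand) for GCLM, chr10:70132826-70133075 (minus strand) for AIFM2, chr16:69726561-69726810 (minus strand) for NQO1 and chr19:48965059-48965308 (plus strand) for FTL.
GCLM: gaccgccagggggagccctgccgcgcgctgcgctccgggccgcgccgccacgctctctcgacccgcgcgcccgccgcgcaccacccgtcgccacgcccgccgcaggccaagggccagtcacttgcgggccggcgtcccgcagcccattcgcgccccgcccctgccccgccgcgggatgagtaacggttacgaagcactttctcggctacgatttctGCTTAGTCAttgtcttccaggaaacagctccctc
AIFM2: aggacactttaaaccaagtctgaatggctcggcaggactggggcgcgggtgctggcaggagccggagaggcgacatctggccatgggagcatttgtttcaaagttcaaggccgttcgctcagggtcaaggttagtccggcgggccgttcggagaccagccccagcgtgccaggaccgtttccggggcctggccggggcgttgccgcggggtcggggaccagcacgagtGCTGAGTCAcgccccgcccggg
NQO1: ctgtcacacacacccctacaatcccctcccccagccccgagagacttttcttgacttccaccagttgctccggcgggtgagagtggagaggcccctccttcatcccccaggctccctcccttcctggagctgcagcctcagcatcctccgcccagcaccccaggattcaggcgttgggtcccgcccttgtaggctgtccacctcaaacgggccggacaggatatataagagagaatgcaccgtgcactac
FTL: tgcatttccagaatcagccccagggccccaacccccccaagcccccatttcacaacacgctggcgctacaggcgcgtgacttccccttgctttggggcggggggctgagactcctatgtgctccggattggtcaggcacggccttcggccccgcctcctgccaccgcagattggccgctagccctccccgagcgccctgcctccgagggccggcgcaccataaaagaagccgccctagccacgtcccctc
The match in GCLM reads TGACTAAGC on the opposite strand, 34 to 26 bases before the start, and that in AIFM2 reads TGACTCAGC on the opposite strand, 22 to 14 bases before the start. Of all 35116 promoters of this table, 3830 (10.9%) hold the core in the same window. Of the 10 genes 7 had a promoter sequence, and GPX4, ACSL4 and TFRC held no match, while SLC7A11, FTH1 and HMOX1 had no entry. A match is a run of letters and not a measured binding site, and elements lying further from the start are outside this window.

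SLC7A11, FTL, HMOX1 and NQO1 shared 1 pattern across the lines, a level in both CAKI-2 and A498 that was called above both 786-O and 769-P in the 4 pairwise tests. These are 4 of the 10 genes, against 13.6% of all tested genes (2734 of 20175), and none of the 10 was below in all 4. That opposite pattern was held by 1980 of the 20175 tested genes. Among 29 other NRF2 targets, all tested and listed by name with earlier results of these data known, 14 had the pattern and none had its opposite. Among 19 other genes of ferroptosis defence 1 did, TXNRD1, which is also one of the NRF2 targets, and 3 had the opposite. Among 22 other iron genes 1 did and 2 had the opposite, among 17 lipid genes 4 did and 3 had the opposite, and among 12 genes of NRF2 control 3 did and 1 had the opposite. The pattern was chosen after the values of the 10 genes had been seen. From 786-O to CAKI-2, 27 of the 29 NRF2 targets were called higher and 1 lower, with a median of 1.71 on the log2 scale, against 0.11 over all genes and 63.3% of all genes called. From 786-O to A498, 21 were called higher and 4 lower, with a median of 1.15 against 0.17 over all genes, of which 68.7% were called. From 786-O to 769-P, 10 were called higher and 13 lower, with a median of 0, where 50.0% of all genes were called.

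The NRF2 targets with the widest range over the lines were AKR1C2, AKR1C1, NR0B1 and GPX2. AKR1C1, an aldo-keto reductase, was at 3332.6 CPM ± 588.6 (SD, n = 5) in CAKI-2 and 0.466 CPM ± 0.156 (SD, n = 5) in 786-O, although it and AKR1C2 are near-identical neighbours whose reads the counting could split. GPX2, a glutathione peroxidase, was at 171.0 CPM ± 18.7 (SD, n = 5) in CAKI-2 and at no more than 0.288 CPM in any library of the other lines. NR0B1, a nuclear receptor, was at 77.2 CPM ± 8.76 (SD, n = 5) in CAKI-2 and 52.7 CPM ± 8.92 (SD, n = 3) in A498, and it held no count in 769-P. NFE2L2 itself, which encodes NRF2, was called across the lines (adjusted p = 0.0015) over a narrow range, at 119.4 CPM ± 5.17 (SD, n = 5) in 786-O and 120.5 CPM ± 12.3 (SD, n = 5) in CAKI-2, with 173.0 CPM ± 34.1 (SD, n = 3) in A498 and 103.9 CPM ± 15.7 (SD, n = 3) in 769-P. KEAP1, its inhibitor, was lower in CAKI-2 and A498 than in both other lines in the 4 pairwise tests, at 75.0 CPM ± 4.61 (SD, n = 5) in CAKI-2 and 73.5 CPM ± 1.09 (SD, n = 3) in A498 against 128.3 CPM ± 12.9 (SD, n = 5) in 786-O and 105.8 CPM ± 15.3 (SD, n = 3) in 769-P. The pattern of KEAP1 was that of 1980 of the 20175 tested genes. NFE2L2 and KEAP1 were named after their values were seen. Of the 12 genes of NRF2 control, 11 were called across the lines, close to the 90.5% of all genes. BACH2 had the widest range, and it and SQSTM1 were highest in CAKI-2, at 8.57 CPM ± 1.37 and 1065.9 CPM ± 137.1 (SD, n = 5 each). MAFF, a small Maf partner, was highest in A498 at 138.7 CPM ± 9.8 (SD, n = 3). BACH1, a repressor of NRF2 targets, and MAFK were also highest in A498, at 49.7 CPM ± 11.8 and 71.2 CPM ± 9.19 (SD, n = 3 each).

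**Figure D3:**
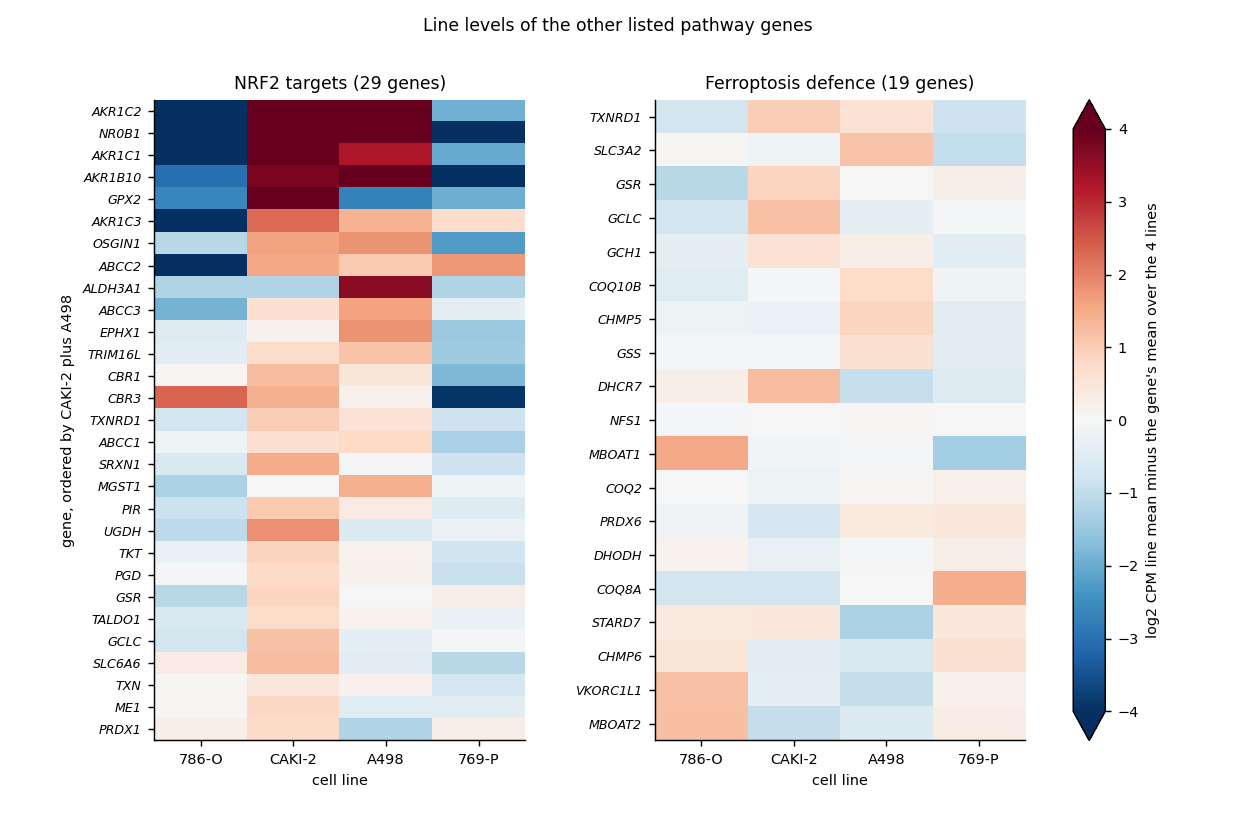
Mean log2 CPM of each line minus the mean of the gene over the 4 lines, for 29 NRF2 targets (left) and 19 genes of ferroptosis defence (right) that are not among the 10 genes, with GCLC, GSR and TXNRD1 on both lists. Red is higher, blue is lower, and the scale is cut at 4. Most NRF2 targets were red in CAKI-2, whereas the defence genes had no common direction.

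The other lists were more mixed. Of 19 ferroptosis defence genes 17 were called across the lines, of 17 tested lipid genes 17 were, and of 22 tested iron genes 21 were, close to the 90.5% of all genes. MBOAT1 and MBOAT2, which remodel membrane phospholipids, were both highest in 786-O, MBOAT2 at 57.5 CPM ± 4.16 (SD, n = 5) there and 13 CPM ± 1.0 (SD, n = 5) in CAKI-2. SLC39A8, an importer of zinc and iron, was at 433.7 CPM ± 50.1 (SD, n = 3) in 769-P and 10.7 CPM ± 3.13 (SD, n = 3) in A498. TFR2, the second transferrin receptor, was highest in A498 at 9.37 CPM ± 1.21 (SD, n = 3), the line in which TFRC was lowest, and it held no count in 769-P. ACSL1, which favours other fatty acids than ACSL4, was at 219.0 CPM ± 18.5 (SD, n = 5) in CAKI-2 and 8.52 CPM ± 1.13 (SD, n = 3) in 769-P, the line in which ACSL4 was highest.

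The second question was whether targeting KDM5C moved these genes. None of the 10 passed an adjusted p under 0.05 by edgeR or by DESeq2 in any of the 4 lines or over the 4 lines together. At this threshold edgeR called few genes of any kind: 0.00991% of all genes (2 of 20175) over the 4 lines and in 786-O, 0.00496% (1 gene) in A498 and as many in 769-P (0.00496%), and 0 in CAKI-2. At an unadjusted p under 0.05 edgeR gave 2 of the 10 genes over the 4 lines, NQO1 and AIFM2, where 5.18% of all genes passed. In single lines the count was 2 of 10 for A498 (5.55% of all genes), 1 for 769-P (3.32%), and 0 for 786-O (2.92%) and for CAKI-2 (1.94%). The estimates over the 4 lines ran from -0.32 to 0.20 on the log2 scale and their 95% intervals, unadjusted for the number of genes, reached from -0.52 at the lowest to 0.47 at the highest. Those of NQO1 and AIFM2 lay below 0, and those of the other 8 genes included 0.

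NQO1 lay below the matching control in each of the 8 sgKDM5C libraries. With guides 4 and 5 in that order, the level was 83.8% and 80.3% of the A498 control, 66.0% and 88.6% of the 786-O control, 79.3% and 81.5% of the 769-P control, and 74.0% and 87.9% of the CAKI-2 control. The fit over the 4 lines gave -0.32 on the log2 scale (SE 0.0913, 95% interval -0.52 to -0.12, unadjusted p = 0.00356, adjusted p = 0.836 by edgeR), so it failed the correction. The estimates of single lines ran from -0.37 in 786-O to -0.29 in A498, and the test of a difference between lines gave an unadjusted p of 0.989. In bulk RNA fewer expressing cells and less RNA per cell cannot be told apart. Of all tested genes 1.67% (336 of 20175) were lower in all 8 libraries, and NQO1 was the 1 gene of the 10 that was.

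AIFM2 was lower in 7 of 8 sgKDM5C libraries, at 75.0% to 89.6% of control in those and at 100.4% in CAKI-2 with guide 5. Its estimate over the 4 lines was -0.22 on the log2 scale (SE 0.0832, unadjusted p = 0.0193, adjusted p = 0.901), and -0.16 once the trend with GC content of each library was taken off. ACSL4 was higher in 6 of 8 libraries, at an estimate of 0.20 (SE 0.124, adjusted p = 0.901), and SLC7A11 also in 6 of 8, at 0.13 (SE 0.126, adjusted p = 0.917). GPX4 was lower in 5 of 8, with its lowest value, 76.2% of control, in 786-O with guide 4 (estimate -0.12, SE 0.0928, adjusted p = 0.902). FTL, lower in 6 of 8, and GCLM, lower in 4 of 8, had estimates of -0.08 and 0.02 with adjusted p of 0.952 and 1. Counts of this size also occurred among the other listed genes, with DHODH lower and NFE2L2 higher in 7 of 8. The share of all genes with such counts is not given here.

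HMOX1, in A498 and 769-P, and TFRC, in A498, were the genes of the 10 with an unadjusted p under 0.05 in a single line. In A498 HMOX1 stood at 69.0% and 55.5% of control with guides 4 and 5 (-0.68 on the log2 scale, SE 0.229, unadjusted p = 0.0101, adjusted p = 0.833), and in 769-P at 180.5% and 149.3% (0.72, SE 0.244, unadjusted p = 0.0103, adjusted p = 1). It was also below control in both 786-O libraries, at 79.5% and 84.0%, and on either side in CAKI-2, at 84.6% and 116.0%. The test of a difference in this change between the 4 lines gave an unadjusted p of 0.00684 and an adjusted p of 1, where 2.29% of all genes had an unadjusted p under 0.05 and none an adjusted one. TFRC in A498 stood at 127.3% and 177.5% of control (0.61, SE 0.255, unadjusted p = 0.0317, adjusted p = 0.88), and FTH1 in CAKI-2 at 91.7% and 223.6%, so that its estimate of 0.66 rested on 1 library. A fit of the A498 libraries alone gave -0.70 for HMOX1 and called it and TFRC by edgeR. With 1 control library, the spread in that fit came only from the 2 sgKDM5C guides. Without a filter on low counts edgeR called the difference between lines for HMOX1 and FTH1. The A498 and 769-P libraries also differed in their trend with GC content: genes of 60% GC stood above genes of 40% GC by 0.74 in the A498 control and by 0.55 and 0.35 in its sgKDM5C libraries on the log2 scale, and by -0.28 in the 769-P control and -0.87 and -0.28 in its sgKDM5C libraries. With this trend taken off HMOX1 changed by -0.58 in A498 and by 0.86 in 769-P.

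**Figure D4:**
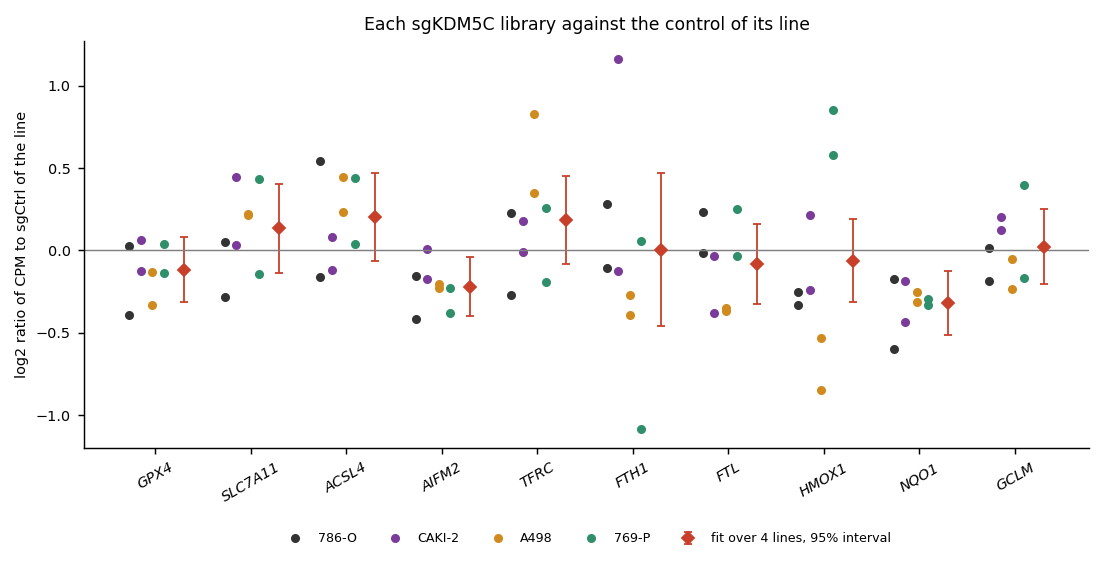
Log2 ratio of CPM in each sgKDM5C library to the sgCtrl library of its line (dots, 2 per line, coloured by line) for the 10 genes, with the edgeR estimate over the 4 lines and its 95% interval as a red diamond and bar. All 8 dots lie below 0 for NQO1, and FTH1 and HMOX1 scatter most.

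None of the other listed genes described here was called by edgeR in any sgKDM5C comparison with the controls, and at an unadjusted p under 0.05 over the 4 lines 1 NRF2 target was higher and 2 were lower of 29, against 5.18% of all genes. The median of the 29 NRF2 targets was -0.04 on the log2 scale beside 0.04 over all genes. Genes were named here by a rule that asked for an unadjusted p under 0.05 and all sgKDM5C libraries on one side of the control. Over the 4 lines it was met by AGPS (0.24, adjusted p = 0.901), of ether lipid synthesis, and TRIM16L (0.18, adjusted p = 0.901), both higher in all 8 libraries. The share of all genes higher in all 8 is not given here. In A498 GCLC, the catalytic partner of GCLM, had a log2 change of -0.85 (unadjusted p = 0.000655, adjusted p = 0.491) and CP, the copper-bearing ferroxidase, had a change of 0.69 (unadjusted p = 0.00727, adjusted p = 0.828). ALOXE3, a lipoxygenase (-1.02), and TF, transferrin (-0.95), had log2 changes below that of GCLC there, and BACH1, a repressor of NRF2 targets (0.55), stood on the side of CP (adjusted p from 0.88 to 0.882). ELOVL5, an elongase of polyunsaturated fatty acids, was above control in both sgKDM5C libraries of A498 and of 769-P, with log2 changes of 0.45 (unadjusted p = 0.018, adjusted p = 0.88) and 0.56 (unadjusted p = 0.00423, adjusted p = 1). ALOX12, another lipoxygenase, had a log2 change of -0.98 in CAKI-2 (unadjusted p = 0.0232, adjusted p = 1). OSGIN1, a stress-induced NRF2 target, had a log2 change of -0.59 in 786-O (unadjusted p = 0.0317, adjusted p = 1), where guides 4 and 5 stood at 48.6% and 84.1% of control. Over the 4 lines its change was -0.38 (unadjusted p = 0.00869, adjusted p = 0.901), with 6 of 8 sgKDM5C libraries below control and 2 above. Its longest transcript held 63.4% GC, and the log2 trend with GC content in 786-O was 0.007 in the control and -0.234 with guide 4. These changes of OSGIN1 are not adjusted for that trend. Leaving out 786-O sgKDM5C guide 5 left guide 4 as the only sgKDM5C library of that line. The change of OSGIN1 over the 4 lines was then -0.49 by edgeR, and its call depended on 1 library.

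Targeting KDM5D was measured in CAKI-2 and 786-O and gave no call among the 10 genes, by edgeR or DESeq2, where edgeR called 0 of all genes in CAKI-2, 0 over both lines and 0.0149% of all genes within 786-O. At an unadjusted p under 0.05 the count was 0 of 10 for CAKI-2 (0.773% of all genes), for 786-O (1.82%) and over both lines (1.50%). The estimates over both lines ran from -0.07 for ACSL4 to 0.28 for FTH1 on the log2 scale, and the 95% intervals together from -0.44 to 0.94. FTH1 was higher than its control in all 4 sgKDM5D libraries, at 112.7% to 129.2% of it, and ACSL4 was lower in all 4, at 93.3% to 97.1%. Such an order also occurred among the other listed genes, with GSS and SQSTM1 higher and HFE and ACO1 lower in all 4. The libraries of a line share 1 control, and the share of all genes with this order is not given here. NQO1 stood at 94.5% and 91.6% of control in 786-O and at 117.5% and 126.9% in CAKI-2 (estimate over both lines 0.09, SE 0.131, adjusted p = 1).

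Set directly against each other, sgKDM5C and sgKDM5D gave separate values of NQO1. In both lines each of the 2 sgKDM5C libraries was below each of the 2 sgKDM5D libraries, at 170.4 and 229 CPM against 244 and 236 CPM in 786-O and at 1379.9 and 1639 CPM against 2193 and 2367 CPM in CAKI-2. Of all tested genes 2.34% had this order in both lines. The difference over both lines was -0.43 on the log2 scale (SE 0.107, unadjusted p = 0.00124, adjusted p = 0.463 by edgeR), and 4.12% of all genes had an unadjusted p under 0.05 and 0.0397% an adjusted one. DESeq2 placed it just inside the threshold at an adjusted p of 0.0496, and without 786-O sgKDM5C guide 5 the difference was -0.55 with an adjusted p of 0.0202 by edgeR, so the call depends on the tool and on 1 library. None of the other 9 genes had an unadjusted p under 0.05. Within single lines edgeR called 0 of the 10 genes, against 0 of all genes in CAKI-2 and 0.0644% of all genes within 786-O. At an unadjusted p under 0.05 it gave 0 of 10 within 786-O (4.78% of all genes) and for CAKI-2 NQO1 alone (3.38%), with -0.59 (SE 0.151, unadjusted p = 0.00149). The naming rule asked here for an unadjusted p under 0.05 and for sgKDM5C and sgKDM5D libraries that did not overlap within each line compared. Of the other listed genes it was met by TRIM16L in 786-O (0.31, adjusted p = 0.885), PGD of the pentose phosphate pathway in CAKI-2 (-0.33, adjusted p = 1) and COQ8A of ubiquinone synthesis over both lines (-0.32, adjusted p = 1). These values share their sgKDM5C libraries with the comparisons against sgCtrl and are not independent of them.

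**Figure D5:**
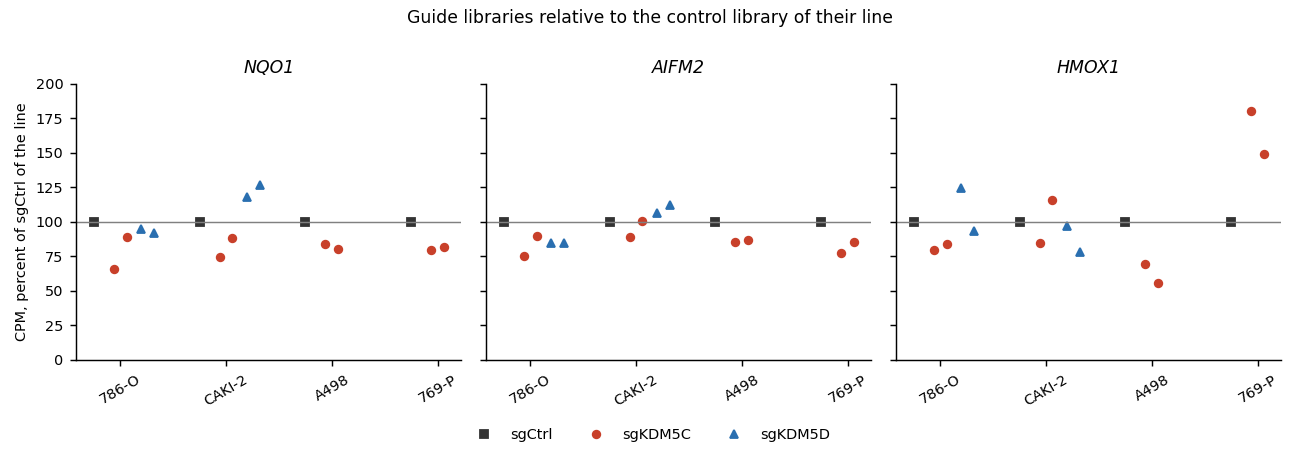
CPM of NQO1, AIFM2 and HMOX1 in every library as a percent of the sgCtrl library of its line (100%, grey line). The red sgKDM5C points of NQO1 lie below 100% in every line and its blue sgKDM5D points between 91.6% and 126.9%, AIFM2 lies below in 7 of 8 sgKDM5C libraries, and HMOX1 goes below in A498 and above in 769-P.

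Within the lines the 10 genes did not vary as one block. After the mean of each line was taken off log2 CPM, the Pearson correlation over the 16 libraries was 0.868 for NQO1 and AIFM2, 0.808 for ACSL4 and TFRC and 0.727 for GPX4 and AIFM2. SLC7A11 ran against FTL (-0.66) and FTH1 (-0.587), and HMOX1 and NQO1 were nearly unrelated (0.073). Among 12075 genes whose mean reached 100 counts, the profile most like NQO1 was that of MLX (0.919), GFOD2 (0.915) and PRMT7 (0.912), and that of TFRC was most like ETF1 (0.956), FAM98A (0.951) and SLC39A14 (0.949). For GPX4 it was PQBP1 (0.960), for SLC7A11 RANBP6 (0.931), for ACSL4 PRPS1 (0.923), for AIFM2 CEP85 (0.916), for FTH1 RBMXL2 (0.892), for FTL ERCC2 (0.859), for HMOX1 SH3BGR (0.836) and for GCLM TMEM19 (0.897). The points share libraries, depth and base composition: the GC content of the longest transcript was 62.5% for GPX4, 56.1% for AIFM2, 35.5% for ACSL4, 41% for TFRC and 35.4% for SLC7A11, and the part of the GC trend in these correlations was not tested.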

How the data were processed

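RNA was isolated with the NucleoSpin RNA kit, libraries were made with the TruSeq Stranded kit and sequenced paired-end. The authors deposited raw counts per Ensembl gene, and the submitters' processing notes name Trimmomatic 0.38, STAR 2.5.2b and GRCh37. The counting tool, annotation and use of strand are not given in the sources used here. Gene symbols and positions came from a GENCODE annotation on GRCh37, which matched 55538 of 57773 identifiers. Genes with at least 60 counts in sum (20175) were fitted with edgeR 4.0.16 (R 4.3.3, TMM, quasi-likelihood, 1 mean per line and target over all 16 libraries, prior df 7.92, residual df 6), with Benjamini-Hochberg adjustment over all of them and a threshold of 0.05. CPM used TMM library sizes, and log2 CPM a prior count of 2. Means and SD of CPM were taken over all libraries of a line, sgKDM5D included, unlike the line means of the edgeR tests. DESeq2 1.42.0 and other settings were alternatives, and the fit was tested on simulated data. 1 gene of the NRF2 target list is not reported here. The members and lists were chosen with earlier results of these data known. All 10 genes were named. Other listed genes were named by range over the lines (up to 4 per list, called, mean of at least 20 counts) or, in guide comparisons without a call, by size among those with an unadjusted p under 0.05 and all guide libraries on one side (up to 3 per direction). Replicate numbers are guide numbers: the differences between guides 5 and 4 correlated from -0.223 to 0.291 across pairs of lines, so they do not pair the libraries.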

Additional observations from a re-analysis of the deposited data

Results flagged for a closer look

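HMOX1 and GCLM were picked out because both sgKDM5C libraries of 1 line lay above the control and both of another line below it. For HMOX1 both were higher in 769-P and lower in 786-O and A498, and the change in 769-P exceeded that in A498 by 1.40 on the log2 scale. For GCLM both were higher in CAKI-2 and lower in A498, with a difference of 0.31. The joint test over the 4 lines gave an unadjusted p of 0.00684 for HMOX1 and 0.659 for GCLM and an adjusted p of 1 for both in edgeR, and the single pairs of lines were not tested. Of all tested genes 49.1% had opposite sides in some pair of lines, so the pattern itself is common here.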

How the results depend on the processing

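The counts of the 10 genes called in comparisons of lines stayed within 1.5 times under RLE size factors, DESeq2, other filters, GC trend removal (chosen after seeing the data) and leaving out libraries. The count was 8 of 10 across the 4 lines when only the control libraries were compared within the fit of all 16. There 76.5% of all genes were called. In comparisons of guides the count was 0 except as follows. The fit of A498 alone, its spread coming only from 2 sgKDM5C guides, called HMOX1 (at -0.70) and TFRC. Without a filter, the count was 2 for a sgKDM5C change differing between lines (HMOX1 and FTH1). Also without a filter, it was 1 for sgKDM5C against sgKDM5D in CAKI-2 (NQO1). For sgKDM5C against sgKDM5D over both lines it was 1 with DESeq2 and 1 without a filter (NQO1 in both). Of the fits leaving out 1 library, only that without 786-O sgKDM5C guide 5 called any of the 10 genes there, namely NQO1. In that fit guide 4 was the only sgKDM5C library of 786-O. The same settings moved the counts over all genes: without that library 122 were called there, against 8, with DESeq2 45 and without a filter 215. For sgKDM5C against sgCtrl over the 4 lines 2 genes were called, against 26 with DESeq2, 113 without a filter and 34 without 786-O sgKDM5C guide 5, in A498 1 against 348 in its own fit, and for a change differing between lines 0 against 106 without a filter. The causes were not tested. With the guide number as a replicate block the count over the 4 lines was 0 and NQO1 stood at -0.32 (adjusted p = 0.95), and the block changed no other call of the 10 genes. Log2 changes were also recomputed for the 10 genes, OSGIN1 and GCLC over lines, and for NQO1 and HMOX1 for sgKDM5C in single lines. Of these 576 values, 35 in 16 results changed sign, none of them called and all within 2 SE of 0, and 6 were newly called, namely NQO1 over both lines and HMOX1 in A498 under the settings above and OSGIN1 without 786-O sgKDM5C guide 5, at -0.49 over the 4 lines (adjusted p = 0.0426) and -0.64 for sgKDM5C against sgKDM5D (adjusted p = 0.0192). With 1 control library per line, leaving out that library allowed no sgKDM5C comparison in it.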
